A study of Mus musculus with 3 samples.

Results

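The intergenic CTCFL peaks that lie close to genes were examined in mouse embryonic stem (ES) cells. They were taken from the deposited list of 7436 CTCFL peaks, and the class held 1356 of them (18.2%). A peak was kept when its midpoint lay outside every protein-coding transcript, outside the interval from 2 kb before to 1 kb after the transcription start site (TSS) of any transcript, more than 1 kb from every protein-coding 3′ end, and at most 40 kb from the nearest protein-coding TSS. These peaks are called near intergenic peaks here. Their positions refer to mouse build mm9 (NCBIM37) and GENCODE transcripts. The other peaks fell into 2344 promoter peaks, 1779 intronic peaks, 1043 far intergenic peaks (beyond 40 kb), 384 peaks at non-coding transcript starts, 306 at transcript ends and 224 in exons.

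The ES cells carried a CTCFL_V5_GFP transgene, a mouse CTCFL tagged with V5 and GFP behind a doxycycline-responsive promoter, in cells that express the reverse transactivator from the ROSA26 locus. Cells were given doxycycline for 3 days and sorted for GFP, and chromatin was precipitated with V5 antibody and sequenced. Non-induced, unsorted cells of the same transgenic kind with V5 antibody were the control, and endogenous CTCF was precipitated with a CTCF antibody. There was 1 library per condition. The list of induced cells was analysed here. It gives intervals without heights or reads, so the depth behind a peak is unknown, occupancy cannot be ranked, and sites that also bind CTCF cannot be told from sites of CTCFL alone. The protein came from a transgene in selected clones of a cell type that is not the germ cell in which CTCFL normally works. The peaks are sites of 1 library, not replicates. The tests below therefore compare sites within that list, and all intervals cover counting error only.

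CTCFL, also named BORIS, is the testis-specific paralog of CTCF. Both bind DNA through closely related zinc fingers, which read a G-rich sequence on one strand, but their termini differ. CTCF at intergenic sites stops cohesin and so helps to shape chromatin loops and to insulate promoters from enhancers. CTCFL itself is made in developing male germ cells, so its sites in ES cells depend on the transgene.

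The sequence bound at the peaks was learned from the 6080 peaks outside the class. The 8-base word AGGGGGCG was the most enriched, being found on either strand in 9.21% of the central 100 bp and in 0.164% of flanking windows, and it was widened to a 20-position matrix over 4419 sites. With N where no base reached 60%, the matrix read NCCNNNAGGGGGCGNNNNNN. The near intergenic peaks had no part in its making. A peak was said to hold a match when its best score in the central 200 bp reached 11 (log2 odds), a value met by 5% of flanking windows on both strands.

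The 5 near intergenic peaks with the highest scores in unique sequence are shown to give the site itself. Capitals mark the match and lower case the 20 bases on either side, read 5′ to 3′ on the strand of the match in mm9. The windows are chr15:102523545-102523604 (+) near Calcoco1, chr15:79713844-79713903 (-) near Apobec3, chr5:136092094-136092153 (+) near Rhbdd2, chr10:77192158-77192217 (+) near Gm10100 and chr15:35222784-35222843 (+) near Osr2.
Calcoco1: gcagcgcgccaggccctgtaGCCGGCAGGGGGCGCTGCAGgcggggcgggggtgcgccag
Apobec3: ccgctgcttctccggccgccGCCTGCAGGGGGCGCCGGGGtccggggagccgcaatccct
Rhbdd2: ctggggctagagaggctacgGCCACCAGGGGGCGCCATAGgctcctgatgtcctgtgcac
Gm10100: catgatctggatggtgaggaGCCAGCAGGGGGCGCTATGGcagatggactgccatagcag
Osr2: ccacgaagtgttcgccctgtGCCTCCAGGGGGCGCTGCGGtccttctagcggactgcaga
Their scores lay between 24.97 and 25.27. The 5 matches shared the central letters, whereas the bases beyond the capitals were different at each site.

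The peak near Calcoco1, a nuclear receptor coactivator and autophagy gene, carried the top score. It spanned chr15:102523347-102523838, 16740 bp downstream of the TSS, and its centre lay 5106 bp from another near intergenic peak. Its central 300 bases (chr15:102523443-102523742, + strand, mm9) are shown to place the match in its surroundings.
Calcoco1 centre: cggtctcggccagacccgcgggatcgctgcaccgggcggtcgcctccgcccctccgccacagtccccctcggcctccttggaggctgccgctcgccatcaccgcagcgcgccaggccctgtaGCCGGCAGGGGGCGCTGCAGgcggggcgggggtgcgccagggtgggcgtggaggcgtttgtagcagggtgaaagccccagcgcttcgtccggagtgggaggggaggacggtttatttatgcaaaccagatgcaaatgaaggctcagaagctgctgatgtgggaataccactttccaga
The 500 bp around this centre had a GC content of 63.4% and an observed over expected CpG ratio of 0.837, so the site was one of the CpG-rich members described further on.

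A match was found in 890 of the 1356 near intergenic peaks (65.6%, Wilson interval 63.1 to 68.1), beside 63.5% of all peaks in the list. In windows of the same length 2 kb to the lower coordinate the share was 5.75%. The match was in the peak but not in its flank at 833 sites and in the flank but not in the peak at 21 sites (exact McNemar test, two-sided, p = 9.49e-216). The median best score was 15.3 in the peaks and 3.30 in the flanking windows. A score of 15.1, which 1% of flanking windows of the other peaks reached, was met by 691 near intergenic peaks (51.0%) and by 20 of their own flanks (1.47%).

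**Figure D1:**
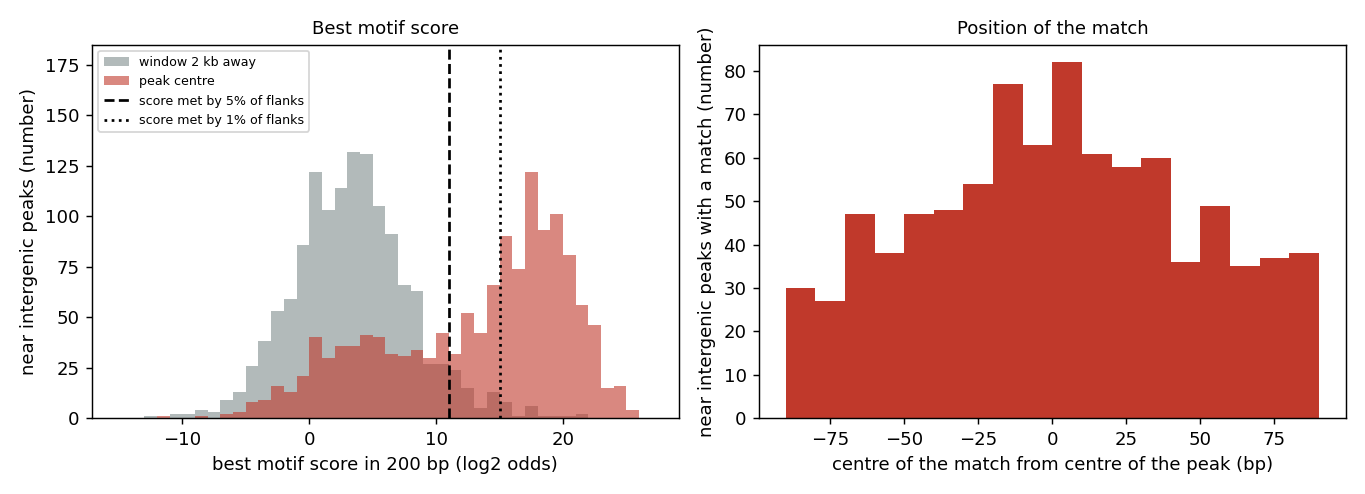
Left, number of near intergenic peaks by best motif score (log2 odds) in the central 200 bp, in red, and in the window 2 kb away, in grey. The dashed and dotted lines are the scores met by 5% and 1% of flanking windows (11 and 15.1), and most red peaks lie to the right of the first line. Right, distance in bp from the centre of the match to the centre of the peak for the 890 peaks with a match, with the bins around 0 the fullest.

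Only the central 200 bp were searched, which limits how far a match can lie from the middle of its peak. The median distance from the centre of the match to that of the peak was 34.5 bp (quartiles 15.5 and 59.5), and 586 of 890 matches (65.8%, interval 62.7 to 68.9) lay within 50 bp. If every position in the window were used equally, 55.2% would lie within 50 bp. When the whole interval was searched, 855 peaks held 1 match, 158 held 2, 32 held 3 and 8 held 4 or more, and 303 (22.3%) held none. By the same search, 11.5% of flanking intervals of equal length also held a match. The 466 peaks without a central match had a median width of 414 bp, against 436 bp for those with one. The 20 bases of a match were seldom repeated, since 890 matches gave 874 different sequences.

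The near intergenic peaks held a match more often than the far intergenic ones, 65.6% against 44.8% (467 of 1043; Fisher's exact test, two-sided, adjusted p = 8.32e-24 by Benjamini-Hochberg over 15 class comparisons). With only the wide peaks (at least the median width of the list) the gap was smaller, 11.8 in place of 20.9 percentage points (69.8% against 58.0%, Fisher's exact test, adjusted p = 5.43e-04). Against intronic peaks (62.8%, adjusted p = 0.123) and promoter peaks (68.3%, adjusted p = 0.123) the difference did not pass the same exact test. Both of these comparisons turned on the definition of a match. With the whole interval searched, near intergenic peaks stood above intronic ones (77.7% against 72.7%, Fisher's exact test, adjusted p = 0.00238). With the score that 1% of flanks meet, the share was 51.0% in near intergenic and 41.5% in promoter peaks (Fisher's exact test, adjusted p = 5.04e-08), whereas with the whole interval searched it was 77.7% and 85.4% (adjusted p = 7.41e-09), the opposite direction. In the central 200 bp the share was lower than in promoter peaks with the matrix learned from promoter peaks (60.8% against 70.4%, Fisher's exact test, adjusted p = 4.58e-09). That matrix was built on the promoter peaks themselves, so this comparison was partly set in advance. With the matrix learned from far intergenic peaks, which used neither class, the share was 69.2% against 72.6% (Fisher's exact test, adjusted p = 0.0471). Promoter peaks were the wider ones (median 515 bp against 427 bp), and the part of width in these differences was not tested. The score limit was set on 200-bp windows, and 11.5% of whole flanking intervals of near intergenic peaks met it.

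**Figure D2:**
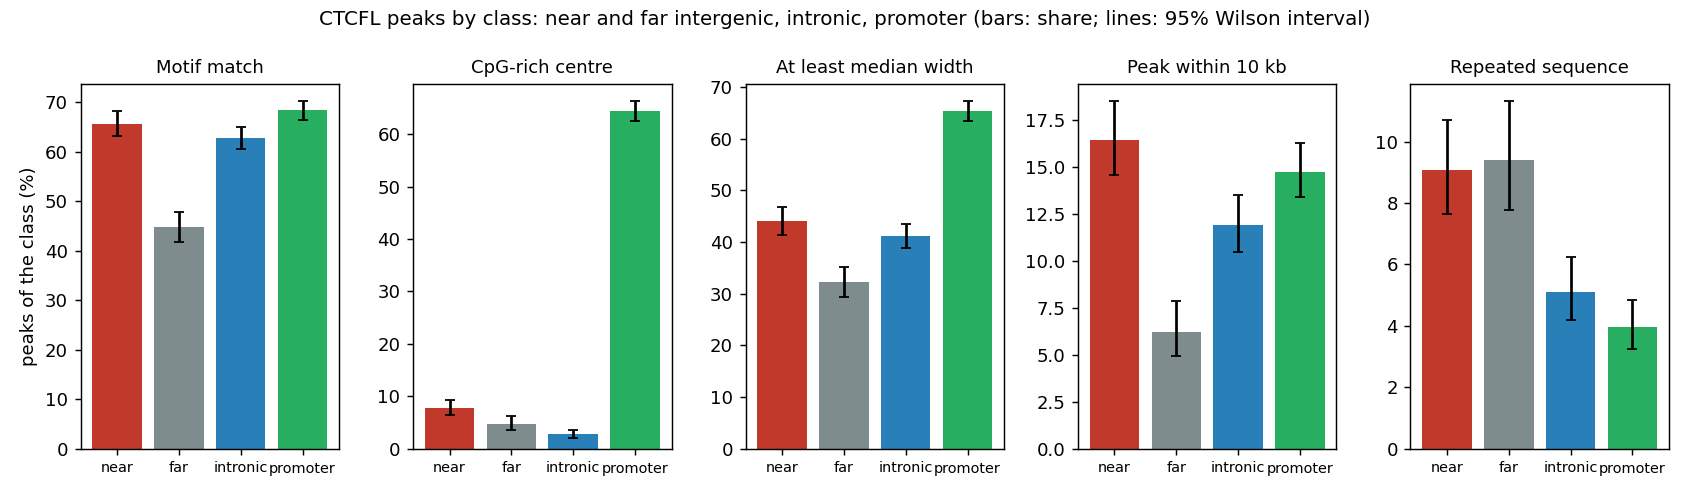
Share of peaks (%) with a motif match, with a CpG-rich centre, at or above the median width of the list, with another peak within 10 kb, and in repeated sequence, for near intergenic, far intergenic, intronic and promoter peaks. Bars are shares and lines 95% Wilson intervals. Near intergenic peaks stand above far intergenic ones in the first 4 panels, and in the second they are far below promoter peaks (7.74% against 64.4%). In the panel for another peak within 10 kb, the distance rule partly sets the contrast with far intergenic peaks.

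The letters of the matches were also compared, a comparison chosen after the data were seen. Position 1 is the first capital of a match as printed. Position 13 is usually C and position 14 G, so that many matches contain a CpG, the dinucleotide that can be methylated. This CpG was present in 451 of 890 near intergenic matches (50.7%, interval 47.4 to 53.9). It was present in 69.2% of promoter matches (adjusted p = 3.68e-19, Fisher's exact test over 3 comparisons), 45.1% of intronic matches (adjusted p = 0.0201) and 49.5% of far intergenic matches (adjusted p = 0.689). At position 14 an A was found in 35.7% of near intergenic matches and a G in 60.9%. The share with A there was 39.4% in far intergenic, 42.2% in intronic and 18.4% in promoter matches. At position 4 an A was found in 60.4% of near intergenic matches (57.2 to 63.6) and in 31.0% of promoter matches (28.8 to 33.3), where G was the commonest base (38.9%). Intronic (60.2%) and far intergenic matches (51.6%) also had A there most often, so this letter was not particular to the near intergenic class. The contrasts at positions 4 and 14 alone were not tested. DNA methylation was not measured in these libraries.

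**Figure D3:**
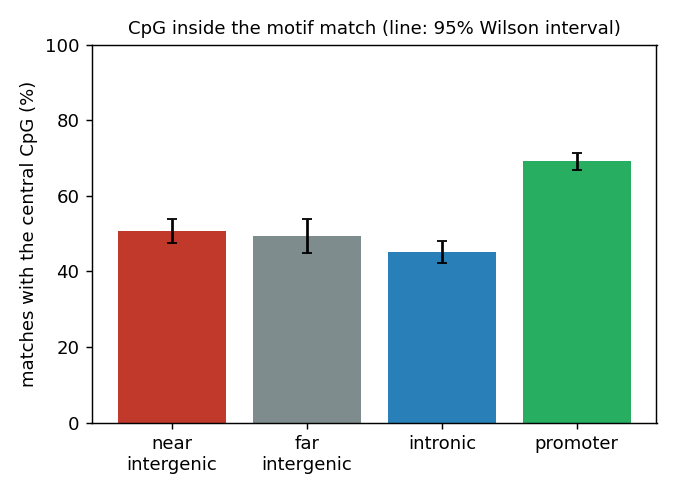
Share (%) of motif matches with C at position 13 and G at position 14, by class of peak. Lines are 95% Wilson intervals. Near intergenic matches (50.7%) lie beside far intergenic ones (49.5%) and below promoter matches (69.2%).

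Around the peak centres the near intergenic sites were mostly poor in CpG. In the 500 bp around the centre the median observed over expected CpG ratio was 0.282 (promoter peaks 0.708, far intergenic 0.212, intronic 0.225), and the median GC content was 49.8%. A centre was called CpG-rich at a ratio of at least 0.6 with a GC content of at least 50%. This held for 105 near intergenic peaks (7.74%), beside 25.4% of all peaks. The share was lower than at promoters (64.4%, Fisher's exact test, adjusted p = 5.74e-278) and higher than in introns (2.81%, adjusted p = 1.10e-09) and at far intergenic sites (4.79%, adjusted p = 0.00640). The last difference did not pass the exact test at a ratio of 0.75 and a GC content of 55% (3.17% against 2.01%, adjusted p = 0.123) or among wide peaks (11.1% against 8.33%, adjusted p = 0.228). The 105 CpG-rich members had a median width of 504 bp, against 421 bp for the others, and 80 of them (76.2%, interval 67.2 to 83.3) held a match.

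The width of the near intergenic peaks ran from 144 to 1708 bp and had its median at 427 bp. The width reached the median of the list in 597 (44.0%), beside 50% of all peaks by construction. Far intergenic peaks were less often wide (32.2%, Fisher's exact test, adjusted p = 8.82e-09) and promoter peaks more often (65.4%, adjusted p = 1.17e-35), whereas the difference from intronic peaks did not pass the test (41.1%, adjusted p = 0.123). Among near intergenic peaks, 69.8% of the wide ones (66.1 to 73.4) and 62.3% of the narrower ones (58.8 to 65.7) held a match.

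The 5 widest members were of a different kind from the 5 with the best scores. None held a match in its central 200 bp. They were the peaks near Ly6c2 (1708 bp, chr15:74915869-74917576), Gm17379 (1532 bp, chrX:166445415-166446946), E030030I06Rik (1209 bp, chr10:21862014-21863222), Gm15319 (1168 bp, chr8:19924700-19925867) and Tac4 (1135 bp, chr11:95119812-95120946). In the first 4 of these the share of 36-base windows that occur once in the genome was between 34.2% and 74.8%. The peak near Tac4, a tachykinin precursor gene, lay in fully unique sequence 2464 bp upstream of the TSS and had a CpG ratio of 0.920. It held 4 matches away from its middle when its whole 1135 bp were searched.

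Repeated sequence was defined as less than 90% unique 36-base windows, 36 bases being the read length. It applied to 123 near intergenic peaks (9.07%), beside 6.27% of all peaks. The share did not differ detectably from far intergenic peaks (9.40%, Fisher's exact test, adjusted p = 0.831), and was higher than in intronic (5.12%, adjusted p = 3.08e-05) and promoter peaks (3.97%, adjusted p = 1.42e-09). A match was found in 48 of these 123 peaks (39.0%, interval 30.9 to 47.9) and in 842 of the 1233 others (68.3%, 65.6 to 70.8). The part of ambiguous mapping in these peaks was not tested. Only exact copies of a window count by this measure, so copies that differ in sequence can pass as unique.

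Distance to a gene was part of the rule and is given as a description. The median distance to the nearest protein-coding TSS was 13538 bp (quartiles 7184 and 22360). The 3 members nearest to a TSS lay 2004 bp from Ndufa4l2, 2019 bp from Cs, the citrate synthase gene, and 2026 bp from Triml2, all upstream. The 3 farthest inside the limit lay 39938 bp from Rragc, a subunit of the nutrient-sensing Rag GTPases, 39919 bp from E2f6 and 39898 bp from Lcor. The next peaks outside it lay 40063 bp from Adam28 and 40128 bp from Ptpn1, and both held a match with scores of 19.2 and 11.7. Of the 6 members just named, all but that near E2f6 (9.12) held a match, with scores of 15.6 to 22.6.

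Sequence that meets the rule was less dense in peaks with rising distance. There were 212 peaks within 5 kb of a TSS, or 3.91 per Mb of such sequence (exact Poisson interval 3.40 to 4.47), 304 peaks between 5 and 10 kb (3.71 per Mb, 3.30 to 4.15), 425 between 10 and 20 kb (3.28 per Mb, 2.98 to 3.61) and 415 between 20 and 40 kb (2.37 per Mb, 2.15 to 2.61). Over the whole class the density was 3.08 per Mb, against 0.985 per Mb (0.926 to 1.05) beyond 40 kb. The intervals of neighbouring bins overlapped except for the last. Differences in how much of this sequence reads can be mapped to were not measured.

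The share with a match changed little over the same distances. It was 69.8%, 65.1%, 65.6% and 63.9% from the nearest bin to the farthest. Within 10 kb of a TSS 67.1% of the peaks held a match, and at 10 to 40 kb 64.8% did (Fisher's exact test, p = 0.410, adjusted p = 0.410 over 5 tests). The share with a CpG-rich centre was 9.30% and 6.79% (Fisher's exact test, p = 0.0951, adjusted p = 0.238). Neither difference passed the test.

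**Figure D4:**
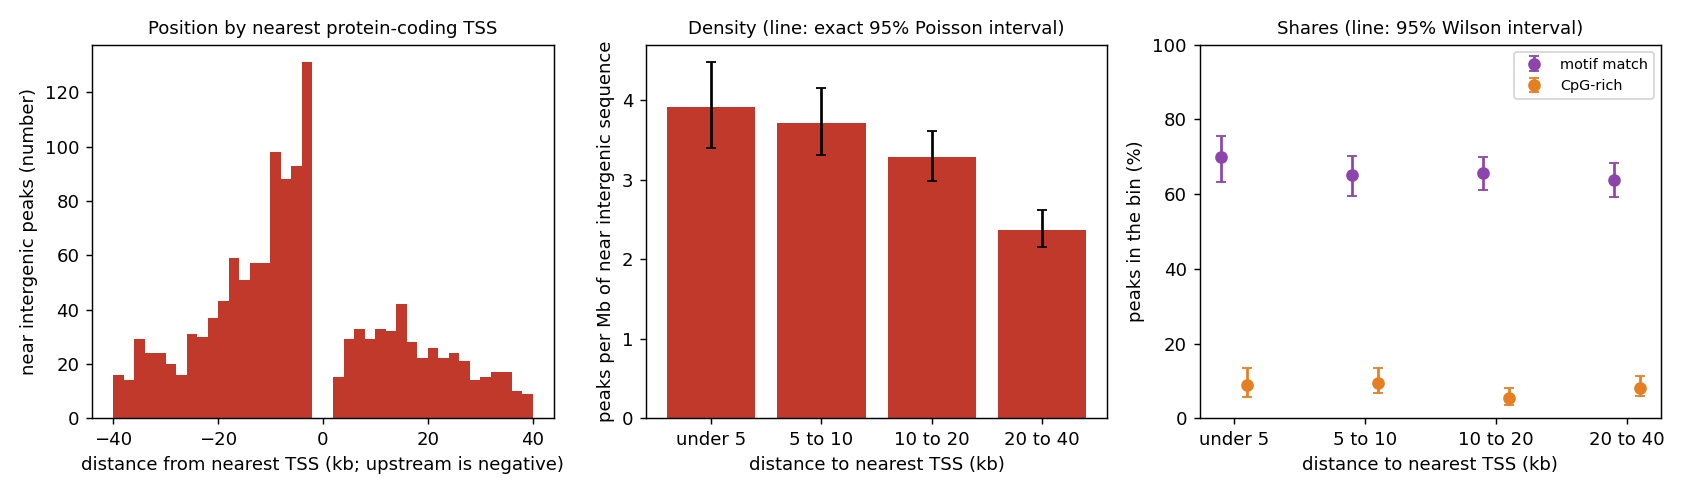
Left, number of near intergenic peaks by distance from the nearest protein-coding TSS in kb, with upstream negative. Centre, peaks per Mb of near intergenic sequence by distance, falling from 3.91 to 2.37, with exact 95% Poisson intervals. Right, share (%) of the peaks of each bin with a motif match and with a CpG-rich centre, with 95% Wilson intervals.

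Upstream of the nearest TSS lay 918 peaks (67.7%) and downstream 438, which came to 2.94 (2.76 to 3.14) and 3.40 (3.09 to 3.74) peaks per Mb of sequence on these sides. By the directions of the flanking genes, 412 peaks lay between divergent genes (3.03 per Mb, 2.75 to 3.34), 700 between genes in tandem (2.90 per Mb, 2.69 to 3.12) and 240 between convergent genes (3.85 per Mb, 3.37 to 4.36), while 4 lay beyond the outermost gene of a chromosome. The interval for convergent gaps lay above those of the other kinds of gap. These densities were not tested against each other. The midpoint of 100 members (7.37%) lay within a non-coding transcript, and in 31 of these the transcript was a lincRNA. No share over all peaks or over all such sequence is given beside this one, so it is a description only.

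The motif has a direction, and CTCF sites are known to stop cohesin from one side. The match pointed, in its G-rich orientation, toward the nearest TSS in 459 of 890 near intergenic peaks (51.6%, interval 48.3 to 54.8; exact binomial test, two-sided, p = 0.365, adjusted p = 0.410). No preferred direction was detected over all members. Among the 417 matches in wide peaks it was 56.4% (exact binomial test, p = 0.0108, adjusted p = 0.0270). The other subsets and settings tried gave 50.3% to 53.4% and did not pass (exact binomial test, adjusted p of 0.158 to 0.853). The adjustment does not cover the choice among these subsets.

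Another peak lay within 10 kb for 223 near intergenic peaks (16.4%), beside 13.9% of all peaks. This was more often than at far intergenic (6.23%, Fisher's exact test, adjusted p = 1.74e-14) and intronic peaks (11.9%, adjusted p = 5.26e-04), while promoter peaks did not differ detectably (14.8%, adjusted p = 0.183). The nearest peak of these 223 was itself near intergenic for 129 and a promoter peak for 63. Pairs of members were counted from both sides, while the exact test takes peaks as independent, which does not hold here. By the distance rule, no far intergenic peak can have a promoter peak within 10 kb. The comparison with far intergenic peaks was therefore partly set in advance. Peaks with a neighbour held a match about as often as those without (64.6%, interval 58.1 to 70.6, and 65.8%, interval 63.03 to 68.5). Where both peaks of a neighbouring pair were members and held a match, 23 of 33 pairs (69.7%, interval 52.7 to 82.6) had the matches in the same direction. In 8 pairs they pointed away from each other and in 2 toward each other. These directions were not tested, and pairs close to each other may not be independent.

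Most intergenic gaps with a member held only 1 (1108 gaps), 104 held 2, 9 held 3, and 2 gaps held more. The gap with the most members, 181 kb between 4930467E23Rik and Gm15319 on chromosome 8, held 5. None of these 5 had a match (scores of -1.20 to 2.11), and only 10.2% to 34.2% of their 36-base windows were unique. The next gap, 51.5 kb between Gm10858 and Gtf3a, the RNA polymerase III factor gene, held 4 peaks in sequence that was 92.5% to 100% unique. All 4 held a match, with scores of 12.7 to 17.4, and all 4 matches were on the + strand. The least unique of these sites (92.5%) was followed by bases close to the most frequent ones of the first group under Other observations.

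The shortest of the 9 gaps with 3 members was the 22.8 kb between Pdx1 and Cdx2 on chromosome 5. Pdx1 encodes a pancreatic and duodenal homeodomain factor and Cdx2 a homeodomain factor of trophectoderm and hindgut. The genes converge, and the peaks lay 14026, 12953 and 7861 bp downstream of the Cdx2 TSS at chr5:148104443-148105196, chr5:148105678-148106108 and chr5:148110547-148111423. All 3 held a match on the - strand, with scores of 19.2, 19.98 and 16.8. The windows chr5:148104859-148104918, chr5:148105831-148105890 and chr5:148110877-148110936 are printed on that strand to show sites that are neighbours in the genome but differ in sequence.
Cdx2 site 1: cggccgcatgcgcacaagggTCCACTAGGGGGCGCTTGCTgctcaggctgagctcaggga
Cdx2 site 2: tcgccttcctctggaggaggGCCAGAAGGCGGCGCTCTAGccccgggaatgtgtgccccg
Cdx2 site 3: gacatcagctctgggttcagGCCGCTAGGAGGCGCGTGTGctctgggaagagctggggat
Beside these, the gap of 77.2 kb between Dppa3 and Nanog on chromosome 6 also held 3 members and is named after its values were seen, because both genes mark pluripotent cells. Its peaks lay 17657 and 34071 bp from the Dppa3 TSS and 38009 bp from the Nanog TSS. Their best scores were 13.4, 10.9 and 15.5, so that the middle one lay just under the limit for a match. A further member lay on the other side of Nanog, 12653 bp from its TSS, with a score of 17.3.

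The 1356 peaks had 1240 different nearest protein-coding genes, of which 1137 had 1 member, 96 had 2 and 7 had more. A promoter peak was present at 166 of the 1240 genes (13.4%), beside 11.2% of all 22378 protein-coding genes. At the genes nearest to far intergenic peaks the share was 11.7% (97 of 829; Fisher's exact test, p = 0.281, adjusted p = 0.410), so the 2 classes did not differ detectably. The share was near that of all genes.

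Of the gene lists, the pluripotency factors had the highest share of genes with a near intergenic peak. This was 7 of 31 (22.6%): Klf5, Lefty1, Lefty2, Nanog, Tbx3, Tdgf1 and Zfp42. For all protein-coding gene symbols the share was 5.57% (1239 of 22238), and the room that each gene has for an intergenic peak was not measured, so that list shares are given as counts without a test. The member near Tdgf1, the Nodal co-receptor Cripto, lay 23164 bp downstream of the TSS and had a score of 23.4. The member near Tbx3, a T-box factor that sustains self-renewal, lay 32297 bp downstream with a score of 20.8, and Tbx3 also had a promoter peak. Lefty2, an inhibitor of Nodal, had 2 members at 18799 and 3047 bp upstream, and both held a match (16.8 and 11.8). The member near Klf5, 13005 bp upstream, had none (3.32), although its gene had a promoter peak.

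In the germ cell and meiosis list 4 of 57 genes (7.02%) were nearest to a member. These were Dppa3, Nanos3, Piwil1 and Zbtb16, and 0 of the 4 had a promoter peak, a count too small to set against the 9 of 57 in the whole list. The site near Piwil1, a PIWI protein of the spermatid piRNA pathway, lay 31507 bp upstream with a score of 17.7. That near Zbtb16, the PLZF repressor of spermatogonial stem cells, lay 24663 bp upstream with a score of 18.2, and its peak held 3 matches. That near Nanos3, needed by primordial germ cells, lay 9951 bp upstream and had no match (-4.04).

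In the imprinted list 4 of 43 genes (9.30%) were nearest to a member: Blcap, Dlk1, H13 and Kcnk9. The site near Kcnk9, a potassium channel gene expressed from the maternal allele in brain, lay 3291 bp upstream at chr15:72379861-72380139 and scored 24.5. The site near Dlk1, a paternally expressed membrane protein of the Notch ligand type, lay 14994 bp upstream at chr12:110675871-110676259 and scored 21.7. The windows chr15:72379980-72380039 and chr12:110676096-110676155 (both +), with that near Tdgf1 (chr9:110825432-110825491, +) and Tbx3 (chr5:120163046-120163105, -), are shown because they had the highest scores of their lists.
Kcnk9: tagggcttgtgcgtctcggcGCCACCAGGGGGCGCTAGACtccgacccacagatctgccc
Dlk1: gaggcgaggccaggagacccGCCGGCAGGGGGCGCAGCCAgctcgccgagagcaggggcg
Tdgf1: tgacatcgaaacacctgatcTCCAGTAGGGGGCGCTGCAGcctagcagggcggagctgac
Tbx3: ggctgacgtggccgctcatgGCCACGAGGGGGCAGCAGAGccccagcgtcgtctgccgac
The sites near Kcnk9, Dlk1 and Tdgf1 contained the CpG at positions 13 and 14, and the site near Tbx3 did not. Allele-specific binding cannot be read from a list of intervals.

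Among developmental transcription factors 24 of 209 symbols (11.5%) were nearest to a member, with Fox, Sox, Nkx, Pax and Gata genes among them. Gatad2b entered by its symbol and encodes a subunit of a chromatin remodelling complex. A promoter peak was present at 5 of the 24, and at 26 of all 209 symbols of the list. The site near Gata5, an endoderm and heart factor, lay 16128 bp upstream with a score of 21.7, and the site near Pou3f3, a neural POU factor, lay 12199 bp upstream with a score of 20.3. Of the cohesin and CTCF list, Wapal and Pds5a (2 of 21) were nearest to a member. The site near Wapal, whose product releases cohesin from chromatin, lay 32338 bp downstream in a lincRNA and scored 21.3, and the site near Pds5a, a cohesin regulator, lay 8611 bp upstream and had no central match (8.45). Of 66 histone genes Hist1h2bl and Hist1h2bj (3.03%, beside 5.57% of all protein-coding symbols) were nearest to a member, with scores of 13.3 and 22.1. Their CpG ratios were 0.818 and 0.821 and their GC contents 43% and 58.2%, so only the site near Hist1h2bj was CpG-rich as defined above.

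The near intergenic peaks were spread over the chromosomes. On the autosomes they made up between 14.6% of the peaks (chromosome 16) and 21.1% (chromosome 15), with 18 of 117 on the X chromosome and 0 of 2 on the Y chromosome. The intervals for chromosomes 16 and 15 overlapped (10.4 to 20.1 and 16.9 to 25.9), and no chromosome was tested.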

How the data were processed

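CTCFL, CTCF and control ChIP-sequencing gave 1 library each (3 conditions). The deposited file holds the start and end of each peak in mm9 for induced cells, with no counts or scores. The authors mapped their 36-base reads with ELAND. Their account of published ES cell data adds alignment with BOWTIE, uniquely mapped reads and MACS peaks at a false discovery rate below 0.05, and does not say whether this list was called in that way. The list is longer than the set of CTCFL sites that the study describes, and how they are related is not stated, which bears on every share and density. Each peak was placed by its midpoint against GENCODE transcripts on NCBIM37, in the order promoter, non-coding start, transcript end, exon, intron. The 20-position matrix came from 10 rounds of search, after widening the seed word by 6 bases on either side. The other classes took part in building this matrix and the near intergenic class did not. Fisher's exact, McNemar and binomial tests were two-sided, with Benjamini-Hochberg adjustment over 15 class comparisons and separately over 5 other tests, at a threshold of 0.05. Intervals are Wilson or exact Poisson at 95%. Densities used every 10th base. Named members were the 5 widest, 5 highest scoring, 3 nearest and 3 farthest, 3 fullest gaps and up to 12 by gene list, taken from the lists in turn. The class, lists and tests were chosen with earlier results of these data known. Scripts were tested on simulated data. Python 3 with numpy, scipy and pandas was used.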

Additional observations from a re-analysis of the deposited data

How the results depend on the processing

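Of 101 alternatives to 25 results, 88 stayed on the same side of the threshold or, for values without a test, within the allowed range, and none reversed a difference that had passed the test. Against intronic peaks the motif share came to pass the test with the whole peak searched (4.97 percentage points higher in near intergenic peaks), with the matrix learned from promoter peaks (3.94) or from far intergenic peaks (3.65), and with peaks of at least 90% unique windows (4.96). Against promoter peaks it came to pass with the whole peak searched (-7.75), the matrix learned from promoter peaks (-9.67) or from far intergenic peaks (-3.32), and, in the other direction, with the score met by 1% of flanks (9.49). The matrix learned from promoter peaks was built on the promoter peaks themselves, which partly set that comparison in advance. The CpG-rich difference from far intergenic peaks no longer passed at the stricter CpG limits (1.16 points) or among wide peaks (2.72 points). The share of matches toward the TSS passed only among wide peaks (56.4%). Peaks at or above the median width numbered 597. The share of matches followed by bases found at another peak was 3.71% with at most 3 differences. Differences that had not passed the test changed sign without passing it in 4 further alternatives. The cause of these changes was not tested. The 4 results and 10 alternatives on the CpG inside the match and on the following bases were added after the data were seen. No paired analysis was possible because only 1 library of each kind was made. Without reads, the strength of a peak and the sites missed by the peak caller cannot be known.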

Other observations

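Beyond the match itself, the next 20 bases were compared between all peaks of the list with a match. Such bases were shared with another peak, with at most 4 differences, by 54 of 890 near intergenic matches (6.07%, Wilson interval 4.68 to 7.83), 71 of 1117 intronic matches (6.36%), 26 of 467 far intergenic matches (5.57%) and 56 of 1602 promoter matches (3.50%, 2.70 to 4.51). The shares were not tested against each other. Linking peaks by this criterion gave 2 groups of 10 or more peaks. The first held 76 peaks, 19 of them (25%) near intergenic, beside 18.2% of all peaks in the list. These 19 lay on 11 chromosomes and 2573 to 38648 bp from a TSS. The second held 38 peaks, 9 of them (23.7%) near intergenic, and these 9 lay on 7 chromosomes. These shares were not tested. The members of the first group were in sequence that was at least 92.5% unique to 36-base windows, those of the second had a median of 88.6%.

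Members with high scores from each group are shown, with the match in capitals, because their following bases resemble each other although the sites are on different chromosomes or far apart. The first 3 belong to the first group (chr7:31532688-31532747, +, near Sbsn; chr17:47934094-47934153, +, near Tcfeb; chr7:72988264-72988323, +, near Pcsk6) and the others to the second (chrX:155847395-155847454, -, near Mtap7d2; chr16:91935559-91935618, -, near Atp5o; chr5:37148431-37148490, +, near Cno), all in mm9.
Sbsn: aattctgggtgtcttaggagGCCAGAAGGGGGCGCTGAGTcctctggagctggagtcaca
Tcfeb: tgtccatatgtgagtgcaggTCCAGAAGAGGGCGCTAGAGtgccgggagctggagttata
Pcsk6: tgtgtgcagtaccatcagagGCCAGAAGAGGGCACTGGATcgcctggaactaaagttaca
Mtap7d2: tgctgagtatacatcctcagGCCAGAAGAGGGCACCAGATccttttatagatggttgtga
Atp5o: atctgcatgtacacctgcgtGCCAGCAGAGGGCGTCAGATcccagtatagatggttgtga
Cno: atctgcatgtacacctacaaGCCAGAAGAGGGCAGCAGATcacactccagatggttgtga
The most frequent following bases were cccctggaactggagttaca in the first group and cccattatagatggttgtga in the second. Repeat annotation was not used here, so these groups carry no family name.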
